A study of Mus musculus with 5 samples.

Results

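The genes described here regulate or belong to the programme that the transcription factor ATF4 runs when cells lack amino acids or make misfolded proteins. They were chosen by name, as 33 symbols in 3 groups. These are 15 regulators and other targets, 8 amino acid transporters and 10 enzymes of amino acid synthesis. The regulators include Atf4 itself, the kinases Eif2ak1 and Eif2ak4, which act upstream of ATF4, and the constitutive phosphatase subunit Ppp1r15b. All 33 were found among the 55573 genes of the table, in 34 rows, because Ddit3 has 2 identifiers. The second Ddit3 identifier lies inside the first on chromosome 10 and had 0 reads in every library, and counting that discards reads shared by 2 genes can lower the value of the first. Vldlr, a lipoprotein receptor, had 1 read in 1 siUpf1 library and 0 elsewhere, so that no comparison of it could be made, and 32 genes passed the filter on low values.

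RNA was measured in Neuro-2A (N2A) cells, an established mouse neuroblastoma line grown with serum. Cells received 60 pmol of either Silencer Negative Control #1 siRNA (siCtl, 2 libraries, replicates 1 and 3) or an siRNA against Upf1 (siUpf1, 3 libraries, replicates 1, 2 and 3). UPF1 is the helicase that nonsense-mediated mRNA decay (NMD) depends on. To find the mRNAs that this pathway degrades, the study combined this knockdown with sequencing of RNA bound by phosphorylated UPF1. The labels give neither the time after transfection nor whether replicates were separate cultures, so p-values measure the spread between these libraries, which may be technical. Levels are given per library or as the mean ± SD of the 2 siCtl and the 3 siUpf1 libraries.

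Cells that run short of amino acids, or whose endoplasmic reticulum is overloaded, phosphorylate the initiation factor eIF2. Most translation then slows, while a few mRNAs with short upstream reading frames, that of ATF4 among them, are translated better. ATF4 pairs with C/EBP proteins on DNA and raises transcription of amino acid transporters, synthetic enzymes and further stress factors. Several mRNAs of this programme have been described as NMD targets, because translated upstream reading frames can place a stop codon ahead of exon junctions.

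The libraries held 20402205 to 27717594 assigned reads. Upf1 itself had 5217 and 5243 normalised read counts in siCtl and 2403, 2496 and 2449 in siUpf1, which is 46.8% of the siCtl level (a log2 fold change of -1.10 ± 0.051 SE, adjusted p = 7.09e-101 by DESeq2). Of 10 markers of sympathetic neuroblastoma cells, 9 had over 10 reads in every library. The summed level of the list was 37422 to 37676 normalised counts in siCtl and 42285 to 45063 in siUpf1, with 6 called higher and 1 lower. Marker lists of 4 genes each for immune, epithelial and fibroblast cells summed to between 24.1 and 92.9 normalised counts, with no gene called. A glial list, with Mog at 0, summed to 386 to 416 in siCtl and 450 to 496 in siUpf1, nearly all of it Mbp. The part of these differences in the results below was not tested. In such bulk RNA, a change in the make-up of the culture and a change of RNA per cell cannot be told apart.

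Knockdown of Upf1 changed most of the 32 tested ATF4-related genes by small amounts, and more of them fell than rose. By DESeq2's test, with a call at an adjusted p-value under 0.05, 18 genes were lower in siUpf1, 7 were higher and 7 were not called. That is 78.1% of 32 genes, where 44.9% of all 15191 tested genes were called (22.9% lower and 22.0% higher). These 32 genes are well expressed, with means from 480 to 27812 normalised counts. Among the 8565 genes with a mean of at least 400 the called share was 61.8%, with 32.3% lower and 29.5% higher. The median log2 fold change was -0.23, beside -0.0024 over all tested genes, and the median size of the change regardless of sign was 0.34, beside 0.28. No member reached a log2 fold change of 1 in either direction. The siCtl and siUpf1 libraries did not overlap at 21 lower and 9 higher genes, leaving only Chac1 and Psat1 with overlap, where 69.4% of all tested genes did not overlap either (35.2% lower and 34.3% higher), and 79.5% of those with a mean of at least 400. A called decrease of 0.5 or more on the log2 scale was reached by 5 of the 32 genes, beside 8.31% of all tested, and a called increase of that size by 0, beside 10.2%.

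**Figure D1:**
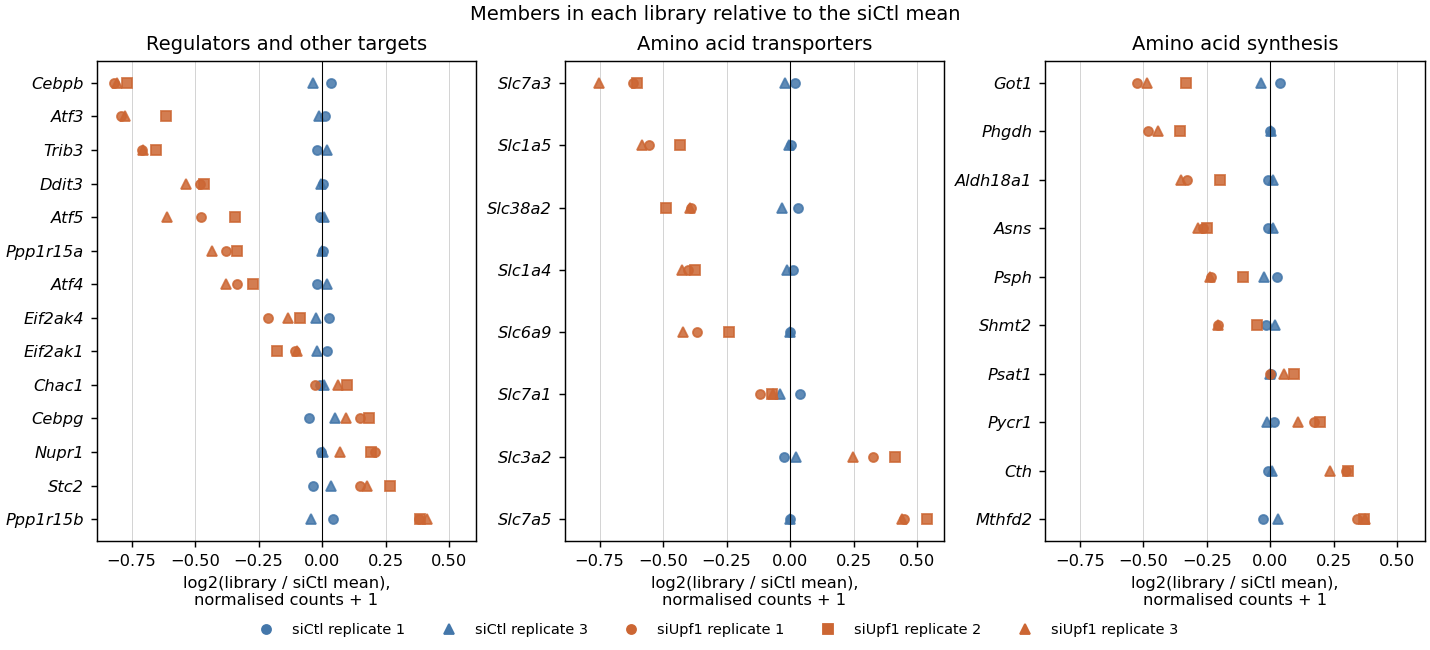
Each point is a library, placed on the x axis by log2 of its normalised count over the siCtl mean (1 added to both), for the 32 tested genes in 3 panels. Blue points are siCtl, orange points are siUpf1, and shapes give the replicate number. Most siUpf1 points lie to the left of 0, while all 3 lie to the right for Cebpg, Nupr1, Stc2, Ppp1r15b, Slc3a2, Slc7a5, Pycr1, Cth and Mthfd2.

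ATF4 binds composite C/EBP-ATF sites (CARE), whose core reads TGATGNAA. Promoter windows from 250 bases before to 50 after the RefSeq transcription start (build GRCm38.p6) were held for 28 of the 33 genes, and not for Cth, Ppp1r15b, Slc1a5, Slc7a3 and Slc7a5. These letters stood on either strand in a window of 9 of the 28 genes (32.1%), Vldlr, which was not tested, among them. They stood in 298 of 10710 tested genes with a window (2.78%) and in 3.97% of all 32851 windows. The members were chosen by name as a programme of ATF4, and the difference between these shares was not tested. The stricter TGATGNAAT, which is contained in the same matches, was found only for Nupr1 and Pycr1. The match in each of the 8 measured genes is shown because ATF4 is known to act through such sites, read on the strand on which it runs TGATGNAA, with the match in capitals.
Asns (chr6:7693214-7693243, minus strand): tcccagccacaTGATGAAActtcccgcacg
Atf3 (chr1:191183425-191183454, plus strand): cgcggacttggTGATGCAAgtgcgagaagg
Chac1 (chr2:119351038-119351067, minus strand): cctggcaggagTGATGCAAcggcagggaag
Got1 (chr19:43524689-43524718, plus strand): ggaggcttgtaTGATGCAAccaatgcaatg
Nupr1 (chr7:126625562-126625591, plus strand): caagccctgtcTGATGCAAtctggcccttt
Pycr1 (chr11:120643833-120643862, minus strand): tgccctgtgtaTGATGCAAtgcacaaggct
Slc1a4 (chr11:20332699-20332728, plus strand): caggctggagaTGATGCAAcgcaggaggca
Trib3 (chr2:152344028-152344057, plus strand): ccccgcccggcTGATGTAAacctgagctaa

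Counted in bases from the start site along the gene, the matches of Atf3, Got1, Nupr1 and Pycr1 begin between -110 and -102. That of Chac1 begins at -193, that of Asns at -23 and that of Slc1a4 at -4, and that of Trib3 lies just after the start. Of these 8 genes, Asns, Atf3, Got1, Slc1a4 and Trib3 fell, Nupr1 rose, and Chac1 and Pycr1 were not called. Of the other 19 genes with a window, 11 fell and 3 rose. Genes with and without the letters in this window both included more that fell than rose.

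Atf4, the factor that gives the programme its name, was the most abundant regulator. Its level was 31141 and 32049 normalised counts in the siCtl libraries and 25050, 26188 and 24338 in the siUpf1 libraries. Every siUpf1 library was below both siCtl libraries, at 79.7% of the siCtl mean (a log2 fold change of -0.33 ± 0.041 SE, adjusted p = 1.75e-14 by DESeq2). Levels per kilobase of exon divide by all annotated exons of a gene, which can exceed the length of its mRNA. Comparisons between genes on this scale therefore depend on the annotation. By this measure Atf4 stood at 13399 normalised counts in siCtl, and the next regulator, Trib3, at 3026.

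Several partner and downstream transcription factors also fell, with decreases larger than that of Atf4, although the differences between genes were not tested. Cebpb, a C/EBP protein that pairs with ATF4, went from 660 and 628 normalised counts in siCtl to 365, 378 and 368 in siUpf1 (a log2 fold change of -0.80 ± 0.11 SE, adjusted p = 3.16e-12 by DESeq2). Atf3, a repressor induced by many stresses, went from 1088 and 1071 to 623, 704 and 630 normalised counts (a log2 fold change of -0.73 ± 0.09 SE). These were the 2 largest decreases among the 32 genes, and in neither did the groups overlap.

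Ddit3, which encodes the pro-apoptotic factor CHOP, had 3817 and 3792 normalised counts in siCtl and 2727, 2754 and 2621 in siUpf1 (a log2 fold change of -0.50 ± 0.053 SE). Atf5, whose mRNA is translated through upstream reading frames much like that of Atf4, had 2564 and 2593 in siCtl and 1850, 2032 and 1687 in siUpf1 (a log2 fold change of -0.48 ± 0.073 SE). The siUpf1 libraries of Atf5 were spread more widely (SD 173) than those of Ddit3 (SD 70.3), and still all of them were below siCtl. Trib3, a pseudokinase that ATF4 and CHOP induce and that restrains ATF4, went from 6347 and 6513 normalised counts to 3934, 4083 and 3947 (a log2 fold change of -0.69 ± 0.047 SE, adjusted p = 6.01e-47 by DESeq2). It had the smallest adjusted p-value of the regulators.

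The other transcription factors did not share the decrease. Cebpg, the second C/EBP partner of ATF4, had 1862 ± 92.5 normalised counts in siCtl and 2055 ± 63.9 in siUpf1, and was not called (a log2 fold change of 0.14 ± 0.065 SE, adjusted p = 0.0632 by DESeq2), although edgeR gave 0.0235. Nupr1, a small stress-induced nuclear protein, rose from 3099 ± 8.86 to 3460 ± 177 (a log2 fold change of 0.16, adjusted p = 0.015 by DESeq2). The Nupr1 call was lost without siCtl replicate 1 (adjusted p = 0.145), siCtl replicate 3 (0.127), siUpf1 replicate 1 (0.0865) or siUpf1 replicate 2 (0.0699). Among the 7 transcription factors, 5 thus fell and 1 rose, with a median log2 fold change of -0.48. The ratio of Cebpb to Cebpg per kilobase of exon was 1.37 and 1.22 in siCtl and 0.66, 0.668 and 0.692 in siUpf1. By this measure the less abundant of the pair differed between the groups, although that depends on the exon lengths used.

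The subunits that direct a phosphatase to eIF2 moved apart. Ppp1r15a (GADD34), the stress-induced subunit that directs a phosphatase to eIF2, fell from 6138 ± 14.4 normalised counts in siCtl to 4712 ± 157 in siUpf1 (a log2 fold change of -0.38 ± 0.048 SE, adjusted p = 1.59e-14 by DESeq2). Ppp1r15b (CReP), the constitutive subunit with the same role, rose from 4051 ± 177 to 5322 ± 58.6 (a log2 fold change of 0.39 ± 0.049 SE, adjusted p = 1.12e-14 by DESeq2). Per kilobase of exon, Ppp1r15a exceeded Ppp1r15b 2.80- and 2.97-fold in the siCtl libraries and 1.70-, 1.75- and 1.61-fold in the siUpf1 libraries.

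The eIF2 kinases changed little. Eif2ak4 (GCN2), which senses uncharged tRNA, had 1247 ± 31 normalised counts in siCtl and 1129 ± 48.7 in siUpf1 (a log2 fold change of -0.15 ± 0.077 SE, adjusted p = 0.114 by DESeq2). Eif2ak1 (HRI), which senses heme and mitochondrial stress, had 2206 ± 44.8 and 2022 ± 60 (a log2 fold change of -0.12 ± 0.061 SE, adjusted p = 0.0855 by DESeq2). Both were lower in 3 of 3 siUpf1 libraries, and edgeR put them at adjusted p-values of 0.0439 and 0.0492.

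The remaining targets in this group were not lower. Chac1, which degrades glutathione and is commonly used as a marker of ATF4 and CHOP activity, had 977 ± 7.35 normalised counts in siCtl and 1008 ± 45.8 in siUpf1, with overlapping libraries (a log2 fold change of 0.04 ± 0.082 SE, adjusted p = 0.713 by DESeq2). Stc2, a secreted glycoprotein, rose from 1665 ± 58 to 1909 ± 83.2 (a log2 fold change of 0.20, adjusted p = 0.00967 by DESeq2). The call of Stc2 was lost without siCtl replicate 1 (adjusted p = 0.197) or siUpf1 replicate 2 (0.0742). Of the 14 regulators and other targets tested, 7 fell, 3 rose and 4 were not called, with a median log2 fold change of -0.24.

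**Figure D2:**
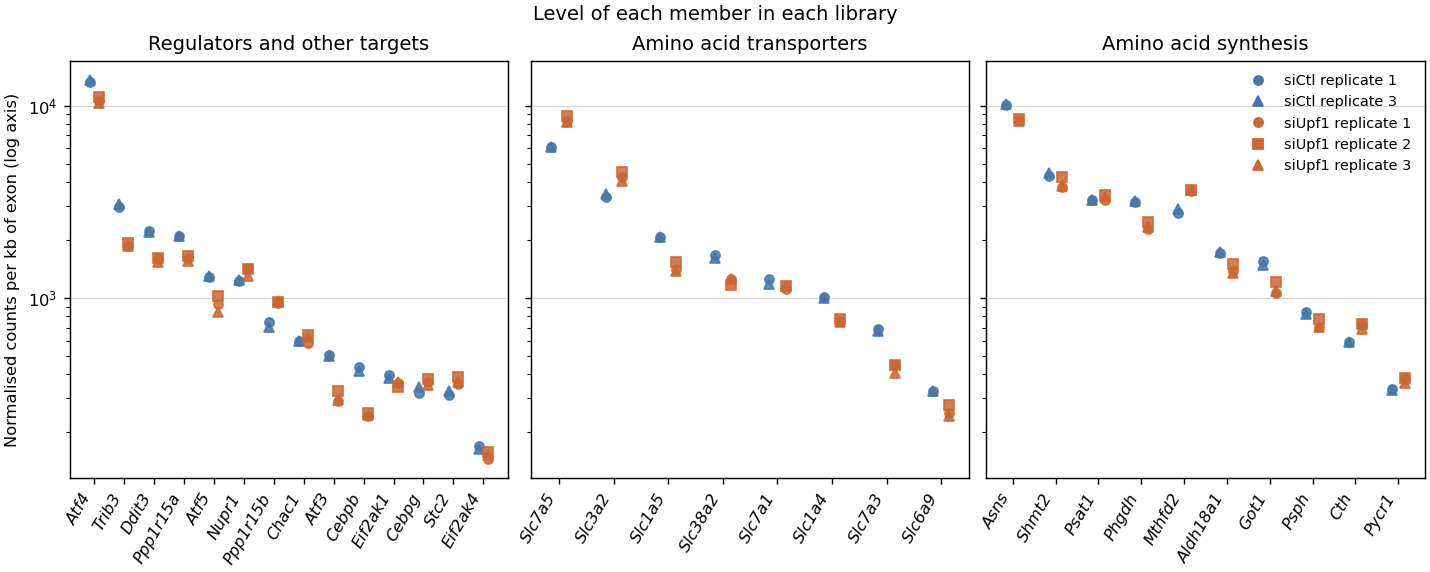
Points give normalised counts per kilobase of exon in each library on a log axis, with genes ordered by their siCtl mean within each group. Blue points are siCtl and orange points siUpf1. Atf4, Asns and Slc7a5 lead their panels, and Slc7a5 is the one of the 3 that is higher in siUpf1.

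The amino acid transporters split into a pair that rose and 5 that fell. Slc7a5 (LAT1), which brings in leucine and other large neutral amino acids, had 22499 and 22524 normalised counts in siCtl and 30753, 32708 and 30577 in siUpf1 (a log2 fold change of 0.48 ± 0.041 SE, adjusted p = 2.90e-30 by DESeq2). This was the largest increase among the 32 genes. Slc3a2 (4F2hc), the heavy chain with which LAT1 forms its heterodimer, rose from 12007 ± 264 to 15103 ± 850 (a log2 fold change of 0.33 ± 0.049 SE, adjusted p = 8.97e-11 by DESeq2). The ratio of Slc7a5 to Slc3a2 per kilobase of exon was 1.81 and 1.76 in siCtl and 1.94, 1.95 and 2.04 in siUpf1, a smaller shift than that within the other pairs examined.

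Carriers for other amino acids went the other way. Slc7a3 (CAT3), a carrier of arginine and lysine, had 2619 and 2550 normalised counts in siCtl and 1684, 1699 and 1535 in siUpf1 (a log2 fold change of -0.66 ± 0.066 SE, adjusted p = 2.84e-22 by DESeq2). Slc1a5 (ASCT2), an exchanger of glutamine and other neutral amino acids, had 8665 and 8624 in siCtl and 5880, 6400 and 5771 in siUpf1 (a log2 fold change of -0.52 ± 0.05 SE). In siUpf1 these carriers stood at 63.4% and 69.6% of their siCtl means.

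Slc38a2 (SNAT2), which takes up small neutral amino acids with sodium and is induced by starvation, had 14855 and 14210 normalised counts in siCtl and 11097, 10358 and 11051 in siUpf1 (a log2 fold change of -0.42 ± 0.045 SE). Slc1a4 (ASCT1), a relative of Slc1a5 that carries serine and alanine, had 3971 and 3916 in siCtl and 2986, 3044 and 2939 in siUpf1 (a log2 fold change of -0.40 ± 0.051 SE). Slc6a9 (GLYT1), a glycine transporter, fell from 1675 ± 1.09 to 1323 ± 86.3 (a log2 fold change of -0.34, adjusted p = 1.47e-05 by DESeq2). All 5 of these carriers were lower in every siUpf1 library than in either siCtl library.

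Slc7a1 (CAT1), the more abundant carrier of arginine and lysine, had 13998 ± 547 normalised counts in siCtl and 13191 ± 260 in siUpf1 and was not called (a log2 fold change of -0.09 ± 0.042 SE, adjusted p = 0.083 by DESeq2). With the dependence of each library's counts on transcript length and on GC taken out, an alternative chosen after seeing the data, its log2 fold change was -0.23 (adjusted p = 3.27e-10). No other member's fold change moved that far by this correction. The median log2 fold change of the 8 transporters was -0.37. Summed per kilobase of exon, however, transporter mRNA was 16451 and 16382 normalised counts in siCtl and 17803, 18709 and 17480 in siUpf1, because Slc7a5 and Slc3a2 made up most of it. Without this pair the sums were 7034 and 6852 in siCtl and 5241, 5362 and 5189 in siUpf1, or 75.8% of the siCtl level.

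Within single pathways, the enzymes of amino acid synthesis did not all change alike. In the serine and proline pathways, called decreases stood beside a gene that was not called. Asns, asparagine synthetase and the most abundant enzyme of the group, fell from 27711 ± 303 normalised counts in siCtl to 23035 ± 288 in siUpf1 (a log2 fold change of -0.27 ± 0.036 SE, adjusted p = 8.48e-13 by DESeq2). Got1, the cytosolic aspartate aminotransferase, had 3963 and 3765 in siCtl and 2683, 3072 and 2762 in siUpf1 (a log2 fold change of -0.45 ± 0.063 SE), the largest decrease among the enzymes.

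In the serine pathway, Phgdh catalyses the first step from 3-phosphoglycerate, Psat1 the second and Psph the last. Phgdh had 7863 and 7893 normalised counts in siCtl and 5644, 6161 and 5800 in siUpf1 (a log2 fold change of -0.43 ± 0.048 SE, adjusted p = 1.56e-17 by DESeq2). Psat1 had 13702 ± 21.8 in siCtl and 14183 ± 467 in siUpf1, with overlapping libraries and no call (a log2 fold change of 0.05 ± 0.041 SE, adjusted p = 0.354 by DESeq2). Psph fell from 3611 ± 85.4 to 3159 ± 165 (a log2 fold change of -0.19, adjusted p = 0.00218 by DESeq2), a call that was lost without siCtl replicate 1 (adjusted p = 0.087). The ratio of Psat1 to Phgdh per kilobase of exon was 1.02 and 1.01 in siCtl and 1.42, 1.39 and 1.43 in siUpf1. Only the difference between the groups is independent of the exon lengths used.

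The mitochondrial enzymes that turn serine into one-carbon units were called in opposite directions. Shmt2, which cleaves serine to glycine, fell from 13632 ± 250 to 12260 ± 776 normalised counts (a log2 fold change of -0.15, adjusted p = 0.00639 by DESeq2), and lost its call without siCtl replicate 3 (adjusted p = 0.121) or siUpf1 replicate 3 (0.0612). Mthfd2, the folate dehydrogenase of the following step, rose from 9850 ± 287 to 12646 ± 148 (a log2 fold change of 0.36 ± 0.04 SE, adjusted p = 8.91e-18 by DESeq2). It was the largest increase among the enzymes, and its call held when any library was left out.

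Of the proline pathway, Aldh18a1, which makes the glutamate semialdehyde precursor, fell from 7022 ± 58.1 to 5735 ± 330 normalised counts (a log2 fold change of -0.29 ± 0.052 SE, adjusted p = 9.74e-08 by DESeq2). Pycr1, which completes proline, had 1316 ± 17.2 in siCtl and 1470 ± 46.1 in siUpf1 (a log2 fold change of 0.16 ± 0.071 SE) and was just over the threshold with DESeq2 (adjusted p = 0.0537) and under it with edgeR (0.0129). Their ratio per kilobase of exon, Pycr1 over Aldh18a1, was 0.197 and 0.191 in siCtl and 0.274, 0.255 and 0.267 in siUpf1. Cth, which releases cysteine from cystathionine, rose from 1644 ± 12.5 to 1995 ± 53.7 (a log2 fold change of 0.28 ± 0.064 SE, adjusted p = 5.37e-05 by DESeq2). In all, 6 of 10 enzymes fell, 2 rose and 2 were not called, with a median log2 fold change of -0.17.

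**Figure D3:**
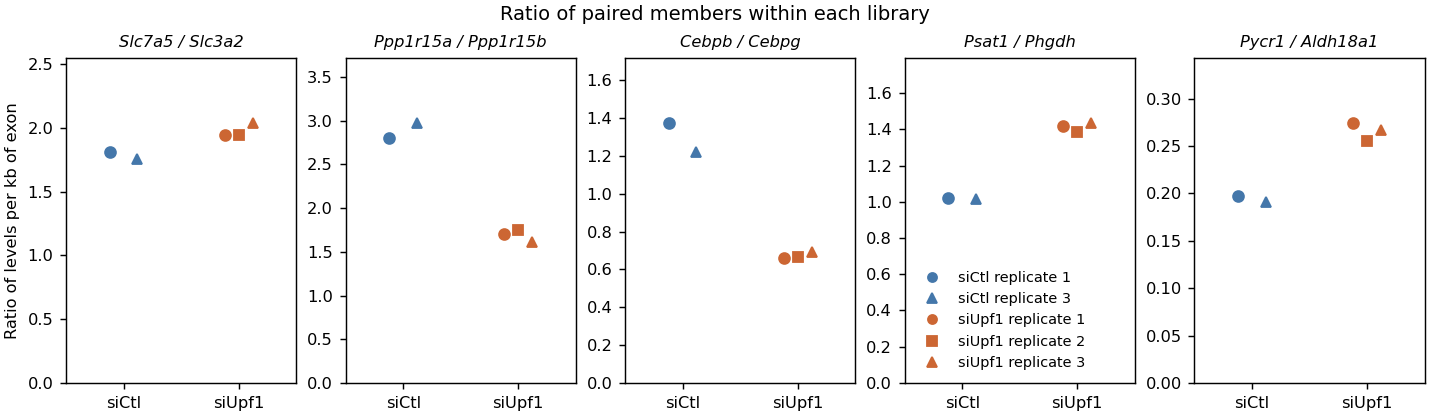
Each panel gives the ratio of 2 genes per kilobase of exon within each library, with axes from 0. The pairs were chosen after the values were seen. Ppp1r15a over Ppp1r15b and Cebpb over Cebpg are lower in siUpf1, while Psat1 over Phgdh and Pycr1 over Aldh18a1 are higher.

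Further genes around the pathway, taken from a list of 55 that held none of the 33, were read in the same fit. Of 52 tested, 21 fell and 14 rose, or 67.3% called, beside 44.9% of all tested genes and 61.8% of those with a mean of at least 400. Their median log2 fold change was -0.12. Among 13 genes of the eIF2 arm, 5 fell and 2 rose. Eif2s2, the beta subunit of eIF2, fell most, from 6372 ± 319 normalised counts in siCtl down to 3786 ± 175 in siUpf1 (a log2 fold change of -0.75, adjusted p = 2.60e-41 by DESeq2). Eif2b2, a subunit of the exchange factor of eIF2, and Impact, an inhibitor of GCN2, had log2 fold changes of -0.40 and -0.34. The kinases Eif2ak2 (PKR, log2 fold change -0.13) and Eif2ak3 (PERK, -0.12) were not called, so that none of the 4 eIF2 kinases passed DESeq2's test.

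Of 17 other genes commonly listed as ATF4 targets, 11 fell and 3 rose. Slc7a11, the cystine and glutamate exchanger, went from 2284 ± 37.9 normalised counts down to 1095 ± 59.3 (a log2 fold change of -1.06), and Sesn2, an inhibitor of mTORC1 signalling, from 4674 ± 130 to 2431 ± 118 (log2 fold change -0.94). Both changed more than any of the 32 genes. Jdp2, a repressor of AP-1 activity, rose from 441 ± 33.5 to 775 ± 45.8 (log2 fold change 0.81).

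Of 8 further transporters, 3 fell and 2 rose. Among those called, Slc36a4, an amino acid carrier, changed most (log2 fold change 0.80). Slc7a7, a subunit of a dibasic amino acid exchanger (-0.64), and Slc38a1, a glutamine carrier (-0.22), followed. Of 14 further enzymes, 2 fell and 7 rose. Mthfd2l, a paralogue of Mthfd2, and Cbs, which acts just before Cth, rose, like those genes, by log2 fold changes of 0.68 and 0.65, whereas Ass1, of arginine synthesis, fell (-0.60). The median of these enzymes was 0.12, against -0.17 for the enzymes above, a difference that was not tested.

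**Figure D4:**
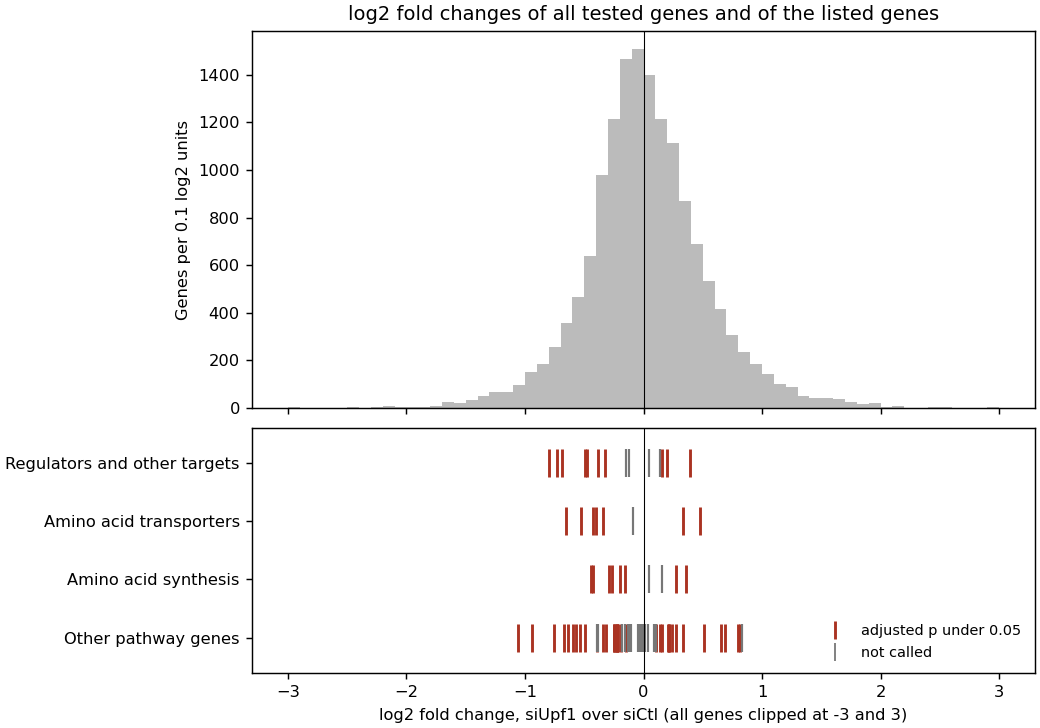
The upper panel counts all 15191 tested genes by log2 fold change of siUpf1 over siCtl in steps of 0.1, with values beyond 3 placed at the ends. Below, each tick is a gene of the 3 groups or of the 52 further tested genes, red where the adjusted p-value was under 0.05. The ticks of the 3 groups lie between -0.80 and 0.48, within the bulk of all genes.

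Features by which mRNAs can become NMD targets were read from 1 representative GENCODE M21 transcript per gene. Annotated NMD isoforms were instead counted over all transcripts of the gene. An upstream ATG was present in 17 of the 32 mRNAs (53.1%), near the 51.7% of 12719 tested mRNAs. Of these 17, 10 fell, 3 rose and 4 were not called. The median log2 fold change of members was -0.27 with an upstream ATG and -0.15 without. Over all tested mRNAs the order was the opposite, with medians of 0.009 and -0.052. An upstream reading frame that runs past the start codon in another frame was found in Atf4, Atf5, Ppp1r15a and Psat1. That is 12.5% of the 32 mRNAs, beside 16.5% of all tested mRNAs. The first 3 fell and Psat1 was not called. Over all tested mRNAs the median log2 fold change was 0.0096 with such a frame and -0.027 without. Ppp1r15a had 7 upstream ATGs and fell, while Ppp1r15b had 3 and rose. An exon junction more than 50 nt after the stop codon was found in 0 of 32, beside 0.456% of all, and an annotated NMD isoform in 4 (12.5%), beside 28.4%. These were Got1 and Slc6a9, which fell, and Mthfd2 and Nupr1, which rose.

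The 12 genes with a 3′ untranslated region of at least 1000 nt had a median log2 fold change of -0.02, and the 20 with a shorter one -0.31. All tested mRNAs showed the same order, with medians of 0.05 and -0.08. The 3′ untranslated regions of Chac1, Slc1a4 and Slc38a2 hold a match for the sense strand's seed in the Upf1 siRNA, and that of Cebpg a match for the antisense strand's seed. Slc1a4 and Slc38a2 fell, and over all tested mRNAs the median was -0.11 with a sense-strand site and -0.02 without. For the antisense strand these medians were 0.0024 and -0.024. A sense-strand site was present in 9.38% of the 32 mRNAs and 9.76% of all, and an antisense-strand site in 3.13% and 7.63%. The part of these sites in the changes was not tested.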

How the data were processed

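Polyadenylated RNA of 5 libraries was sequenced by the study on a strand-specific protocol. The table deposited by the authors holds raw read counts for each gene. The authors trimmed reads with fastp, mapped them to GRCm38.p6 with STAR 2.7.0f and counted exonic reads on the reverse strand with featureCounts (Subread 1.6.4). Reads of near-identical copies can be dropped or split by such counting.

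Counts of all 55573 genes were fitted with DESeq2 1.42.0 (R 4.3.3), after the study's methods, by the Wald test on group, with default size factors and filtering, and p-values adjusted after Benjamini and Hochberg over all tested genes (threshold 0.05). Normalised counts were divided by the merged length of all GENCODE M21 exons of the gene for levels per kilobase. M21 describes the same build and matched 99.8% of the identifiers. Depth was 20402205 to 27717594 reads per library. An exact permutation test of 2 against 3 libraries cannot reach 0.05, so none was made. Scripts were tested on simulated counts.

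Alternatives were edgeR 4.0.16, TMM and total-count scaling, a minimum of 10 counts in 2 libraries, no filter, a replicate block, omission of each library and, added after seeing the data, removal of length and GC trends. The members and lists were chosen with earlier results of these data known. Values per library are given for Atf4 and for called members with a log2 fold change of at least 0.4 in size, and of the further genes the 3 called genes with the largest change per list and the eIF2 kinases are named.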

Additional observations from a re-analysis of the deposited data

How the results depend on the processing

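No value of the 32 tested genes changed sign under any of 12 alternatives. Of 384 such values, 357 kept their side of the threshold, 14 gained a call and 13 lost it. The genes concerned were Cebpg, Cth, Eif2ak1, Eif2ak4, Nupr1, Psat1, Psph, Pycr1, Shmt2, Slc7a1 and Stc2, all with a log2 fold change under 0.3 in size. The numbers of genes called lower reached from 17 to 21 and higher from 4 to 9 over all alternatives. The replicate block gave the lowest number higher, 4, without Cth, Nupr1 and Stc2, called 3919 genes in all and 7 of the further pathway genes higher, and put the median of the regulators at -0.26. The correlation of deviations from group means across genes was -0.0861 for number 1 and -0.0748 for number 3. With 2 siCtl libraries, the siCtl deviations are mirror images, so these values are not independent. They cannot settle whether the replicate numbers pair the libraries. There is no siCtl library with the number of siUpf1 replicate 2. Leaving out 1 library at a time gave medians of the regulators from -0.26 to -0.23. Where a siCtl library was left out, the other was assumed to vary like the siUpf1 group. The median of all genes moved by less than 0.1 in every setting. Vldlr, with 1 read in siUpf1 replicate 2 and 0 elsewhere, was not tested.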
